A study of Mus musculus with 32 samples.

Results

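Potassium channel genes were followed in the frontal cortex of 32 mice that carried gut microbiota from primate donors. The genes are those whose symbol starts with Kcn, the prefix of the pore-forming and auxiliary subunits of potassium channels, without the antisense and pseudogene rows. They were selected on measured values: a row was kept where its mean over the 32 mice was 5 CPM (counts scaled by the total of the library) or more. This left 61 of 93 Kcn rows, in a table of 23958 rows. The selection used the mean over all mice and no difference between groups. All 61 genes had counts in 32 of 32 mice.

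The mice were inoculated with microbiota of humans (12 mice, batches A and B), squirrel monkeys (8 mice, batches C and D) or macaques (12 mice, batches E and F). RNA came from the infralimbic and prelimbic cortex, and the labels give no strain, age or sex and no mice without a primate microbiota. Counts come from TagSeq, which reads the 3′ ends of transcripts, so tests compare levels between mice and not between genes. Only the 5 CPM threshold and the choice of the most abundant gene of each subfamily set levels of different genes side by side. Every batch, and every plate column of libraries, held mice of 1 donor species, so donor, batch and plate column cannot be told apart. The p-values measure the spread between mice.

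Potassium channels let potassium leave the cell, which holds the resting potential, ends action potentials and sets the interval between them. Voltage-gated subunits (Kcna to Kcnd, Kcnh, Kcnq) open on depolarisation, calcium- and sodium-activated subunits (Kcnma, Kcnn, Kcnt) follow ion entry, inward rectifiers (Kcnj) pass current near rest and serve potassium uptake by astrocytes, and two-pore-domain channels (Kcnk) carry leak current. Modifier subunits (Kcnf, Kcng, Kcns, Kcnv) form no channel alone and join Kcnb subunits, while Kcnab, Kcnip, Kcne and Kcnmb encode auxiliary subunits.

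Libraries held 1035036 to 2089308 counts, with a median of 1534710, at which 5 CPM is about 7.67 counts. The 61 genes together took 0.384% to 0.452% of a library. The coefficient of variation within donor groups ranged from 7.31% to 58.5%, with a median of 21.8%, against a median of 11.8% from counting alone. The 20 oligodendrocyte markers had summed levels of 1031 to 12086 CPM for human donors, 1270 to 6431 CPM for squirrel monkey donors and 934 to 4459 CPM for macaque donors, and none of them was at 0. In bulk tissue, fewer cells of a type and less RNA per cell cannot be told apart.

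The subfamilies were retained to different degrees. All rows passed for Kcnab (3), Kcnb (2), Kcnc (4), Kcnd (3), Kcnf (1), Kcnip (4) and Kcnt (2). For Kcnj 10 of 15 rows passed, for Kcnk 7 of 13, for Kcna 5 of 8, for Kcnh 5 of 8, for Kcnq 3 of 5 and for Kcne 1 of 5. The single rows of Kcnrg and Kcnu did not pass. Just inside the threshold were Kcnmb2, an auxiliary subunit of calcium-activated channels, at 6.52 CPM and Kcnh4 at 5.59 CPM. Just outside were Kcns3 at 4.84 CPM and Kcnu1 at 4.35 CPM.

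Between the human and macaque groups, 1 gene rose, Kcna6, and 1 fell, Kcnt2. These 2 of 61 genes (3.28%) compare with 8.01% of all 12651 genes tested at an adjusted p below 0.05 (edgeR quasi-likelihood test, Benjamini-Hochberg over all genes), of which 4.47% were higher and 3.54% lower. At an unadjusted p below 0.05 there were 10 genes (16.4%) against a background of 23.1%. The median log2 fold change of the 61 genes was -0.04, with 26 higher and 35 lower. The 95% interval lay within 0.5 log2 units of 0 on both sides for 44 of 61 genes.

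Kcna6 encodes a delayed-rectifier subunit of the Shaker subfamily. Its level in the human group was 39.8 CPM in the lowest mouse, 76.5 at the median and 105 in the highest. In the squirrel monkey group the corresponding levels were 31.01, 56.3 and 72.7 CPM, and in the macaque group 34.1, 46.1 and 52.3 CPM. Thus 10 of 12 human-group mice lay above every macaque-group mouse, and the other 2 lay within the macaque range. Mean levels were 73.1 ± 18.8 CPM (SD, n = 12) in human-group and 44.5 ± 7.14 CPM (SD, n = 12) in macaque-group mice. The difference was 0.69 ± 0.12 on the log2 scale (SE; edgeR adjusted p = 0.000261). Both human batches were high, with means of 74.3 CPM in A and 72.5 CPM in B, and both macaque batches low, with 43.0 CPM in E and 45.6 CPM in F.

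In the squirrel monkey batches, the difference in Kcna6 did not pass the adjusted test. Batch C held 55.3, 57.3, 60.9 and 72.7 CPM, and batch D held 31.01, 39.5, 44.0 and 61.5 CPM. The highest mouse of batch D lay within the range of batch C, and its other 3 mice lay below every mouse of C. The log2 difference of C over D was 0.49 ± 0.22 (SE; edgeR unadjusted p = 0.0298, adjusted p = 0.641). Human against squirrel monkey gave 0.47 ± 0.14 (SE; adjusted p = 0.165), and squirrel monkey against macaque 0.22 ± 0.15 (SE; adjusted p = 0.557).

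Kcnt2 encodes a sodium-activated potassium channel subunit. Its level in the human group was 18.6 CPM in the lowest mouse, 21.9 at the median and 30.7 in the highest. The squirrel monkey group had 22.4, 31.5 and 37.5 CPM, and the macaque group 22.01, 32.1 and 39.5 CPM. No human-group mouse reached the macaque median, and 6 of 12 lay below every macaque-group mouse. The means of 22.9 ± 3.51 and 31.3 ± 5.43 CPM (SD, n = 12 each) differed by -0.47 ± 0.10 on the log2 scale (SE; edgeR adjusted p = 0.00208). Human against squirrel monkey gave -0.43 ± 0.11 (SE; adjusted p = 0.107), and squirrel monkey against macaque -0.04 ± 0.11 (SE; adjusted p = 0.916). The other sodium-activated subunit, Kcnt1, had a human over macaque difference of 0.12 ± 0.08 (log2, SE; adjusted p = 0.359).

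**Figure D1:**
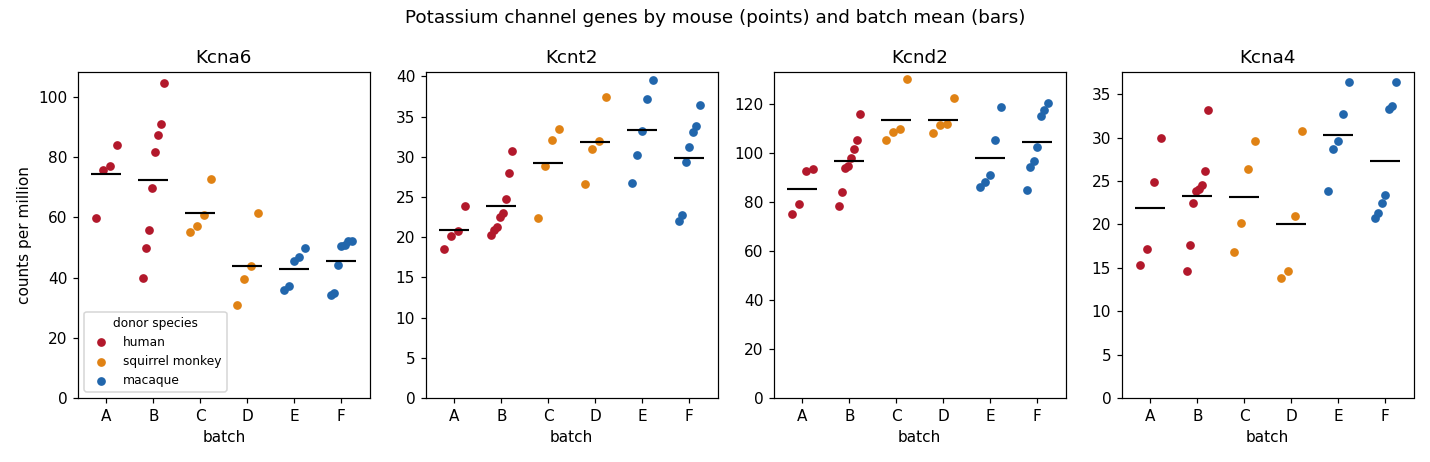
Level of Kcna6, Kcnt2, Kcnd2 and Kcna4 in CPM (vertical axis) in every mouse (points, coloured by donor species) of batches A to F (horizontal axis), with the batch mean as a bar. Kcna6 is high in batches A and B at means of 74.3 and 72.5 and falls between in batch C, while Kcnt2 is lowest in A and B at 20.9 and 23.9.

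Genes beside Kcna6 and Kcnt2 on the chromosome were read as a check on the region, with the order taken from RefSeq (GRCm38.p6). None of the 5 given here passed in human against macaque. Beside Kcna6, Kcna1 had a log2 fold change of -0.00 ± 0.09 (SE), Ndufa9, a subunit of respiratory complex I, 0.01 ± 0.07, and Kcna5 0.40 ± 0.27. Kcna5 stood at 28.8 CPM in human mouse 7, its highest level, against medians of 7.51 CPM in the human and 5.95 CPM in the macaque group. Beside Kcnt2, Cdc73 had -0.15 ± 0.08 and B3galt2 -0.18 ± 0.12. Both genes overlap an annotated gene on the other strand in GENCODE release M21 (Gm26673 and 4930590L20Rik, not analysed here), and strand use in counting is not given in the sources used here, so both levels are uncertain.

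In the squirrel monkey group, 0 of 61 genes passed against macaque (edgeR, background 0.64%), and 9 did at an unadjusted p below 0.05 (14.8%, background 13.2%). DESeq2 and limma voom also called 0 of 61 there, with 154 and 46 of all genes called. Human against squirrel monkey gave 0 of 61 (edgeR, background 0.134%) and 9 at an unadjusted p below 0.05 (14.8%, background 10%). In that comparison DESeq2 called 1 of 61 and 89 of all genes, and voom called 0 of 61 and 19 of all genes. The human and squirrel monkey groups, averaged and set against macaque, gave 1 of 61, Kcna6 (log2 fold change 0.45 ± 0.12, SE; edgeR adjusted p = 0.0159), against a background of 5.51%. At an unadjusted p below 0.05 that comparison had 10 genes (16.4%, background 20.6%). The Kcna6 call in the combined comparison was lost without batch C (0.32, adjusted p = 0.183), E (0.41, adjusted p = 0.170) or F (0.51, adjusted p = 0.145). The comparisons against macaque share the macaque mice.

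Kcnd2 encodes the main pore subunit of the dendritic A-type current. Its levels were 75.1, 93.8 and 116 CPM (lowest, median, highest) in the human group, 105, 111 and 130 CPM in the squirrel monkey group, and 84.8, 99.6 and 120 CPM in the macaque group. Of the human-group mice, 10 of 12 lay below every squirrel-monkey mouse. Human against squirrel monkey gave -0.30 ± 0.08 (SE; edgeR adjusted p = 0.139), which passed with DESeq2 (-0.29, adjusted p = 0.0392) and without batch B (-0.45, edgeR adjusted p = 0.0474). The Kcnip genes encode calcium-binding partners of Kcnd subunits, and 0 of 4 passed in any donor comparison.

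Kcna4, an A-type subunit of the Shaker subfamily, was 22.8 ± 5.74 CPM (SD, n = 12) in the human group, 21.6 ± 6.59 CPM (SD, n = 8) in the squirrel monkey group and 28.6 ± 5.97 CPM (SD, n = 12) in the macaque group. Human and squirrel monkey against macaque gave -0.38 ± 0.12 (SE; edgeR adjusted p = 0.0607), and 4 of 12 human-group and 4 of 8 squirrel-monkey mice lay below every macaque-group mouse. Kcnv1, a silent subunit, was 34.0 ± 7.94 CPM (SD, n = 8) in the squirrel monkey group against 45.5 ± 10.3 CPM (SD, n = 12) in the macaque group. The log2 difference was -0.45 ± 0.17 (SE; edgeR adjusted p = 0.228).

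**Figure D2:**
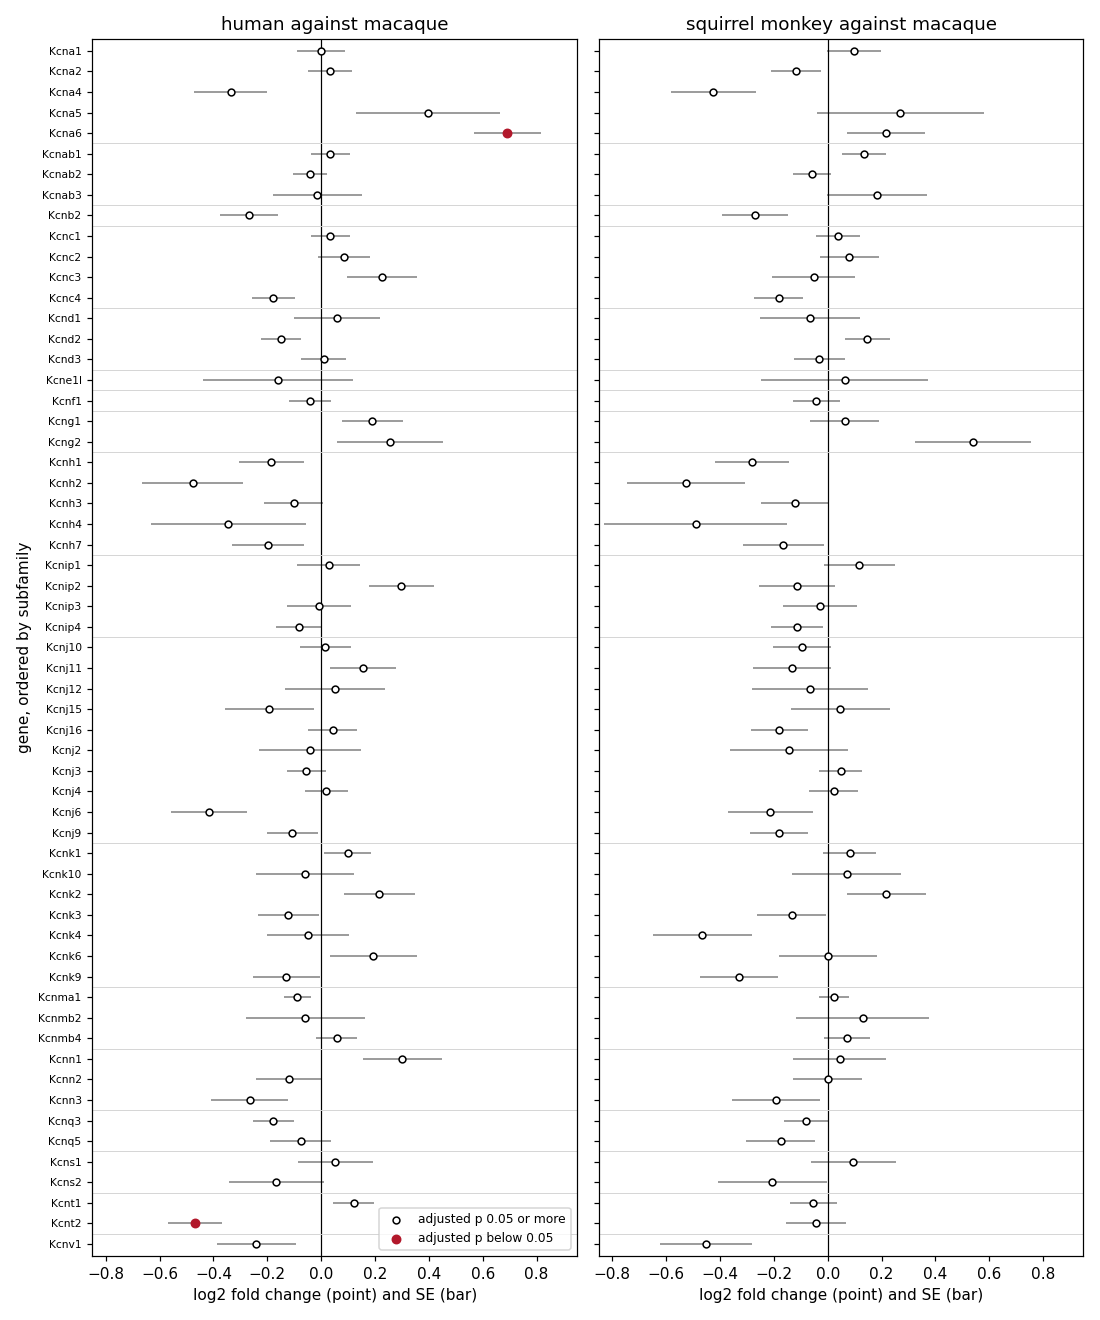
Log2 fold change (points) with its SE (bars) of 59 of the 61 genes (vertical axis, ordered by subfamily) in human against macaque (left) and squirrel monkey against macaque (right). Kcna6 at 0.69 and Kcnt2 at -0.47 are the filled points, and the 5 Kcnh genes lie left of 0 in both panels.

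By subfamily, the 5 Kcnh genes, which encode ether-à-go-go channels, had log2 fold changes from -0.48 to -0.10 in human against macaque and from -0.52 to -0.12 in squirrel monkey against macaque. None passed the test, and the lowest adjusted p was 0.108 (Kcnh2). Kcnh2 and Kcnh4 lie near the 5 CPM threshold, at means of 8.16 and 5.59 CPM. Exons of Kcnh7 overlap Gca on the other strand, and its 3′ end has a near copy in Gca. With the oligodendrocyte marker score as a covariate, 4 of 5 Kcnh genes were below 0 in human against macaque and their median was -0.10 instead of -0.20. In that fit 6638 of all 12651 genes were below 0. In squirrel monkey against macaque, 4 of 5 Kcnh genes were below 0 with the score, from -0.41 to 0.03, with a median of -0.21. There 6493 of the 12651 genes were below 0. Upper cortical layer markers lay lower in 7 of 9 genes in the human group and in 8 of 9 in the squirrel monkey group, with 0 passing; their part in the Kcnh values was not tested. The 2 Kcng genes lay above 0 in both comparisons, with 0 passing.

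For the most abundant members of other subfamilies given here, no difference between human and macaque passed the test. Kcnma1, the large-conductance calcium-activated channel, had 377 ± 29.7 CPM (SD, n = 12) in the human group and 394 ± 30.98 CPM (SD, n = 12) in the macaque group (log2 fold change -0.09 ± 0.05, SE; adjusted p = 0.290). Kcnk1, a leak channel, had 0.10 ± 0.09, Kcnn2, a small-conductance calcium-activated channel, -0.12 ± 0.12, and Kcna2, an axonal subunit, 0.03 ± 0.08 (SE each). Kcnc4, a voltage-gated subunit, had -0.18 ± 0.08, and 6 of 12 human-group mice lay below every macaque-group mouse. Human mouse 12, at 147 CPM, lay above every macaque-group mouse, and without it Kcnc4 passed (edgeR, with 1069 of all genes). The modifiers Kcnf1, Kcng1 and Kcns1 had -0.04 ± 0.08, 0.19 ± 0.11 and 0.05 ± 0.14, the auxiliary gene Kcne1l -0.16 ± 0.28, and Kcnh7 -0.20 ± 0.13.

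Among the inward rectifiers, 5 of 10 lay above 0 and 5 below in human against macaque, from -0.42 to 0.16, and 3 above and 7 below in squirrel monkey against macaque, from -0.21 to 0.05, with 0 passing. The lowest adjusted p in human against macaque was that of Kcnj6, which encodes a subunit of the neuronal G-protein-gated channels and is named here after its values were seen. It stood at 12.2 ± 2.50 CPM (SD, n = 12) in the human group, 13.8 ± 2.41 CPM (SD, n = 8) in the squirrel monkey group and 16.1 ± 4.41 CPM (SD, n = 12) in the macaque group, and 1 of 12 human-group mice lay above the macaque median. The difference of human over macaque was -0.42 ± 0.14 on the log2 scale (SE; edgeR adjusted p = 0.0574). Kcnj3, which encodes a partner of Kcnj6 in these channels, had -0.05 ± 0.07 and Kcnj9 -0.11 ± 0.10 (SE).

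The Kcnq genes encode subunits of the M-current, which limits repetitive firing. Kcnq3 and Kcnq5 had -0.18 ± 0.08 and -0.08 ± 0.11 in human against macaque. The 7 leak channel genes ranged from -0.13 to 0.22 in human against macaque and from -0.47 to 0.22 in squirrel monkey against macaque, with Kcnk4 lowest in the second (-0.47 ± 0.18, SE; adjusted p = 0.249). Its level is uncertain, since its exons overlap Catsperz on the same strand and its 3′ end has near copies in 6 other genes.

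Between batches of the same donor species, 0 of 61 genes passed in A against B (edgeR, background 0.0237%), C against D (background 0%) and E against F (background 0%). DESeq2 called 0 of 61 in each, with 10, 0 and 0 of all genes called. At an unadjusted p below 0.05 there were 2 genes in A against B (3.28%, background 11.6%), 3 in C against D (4.92%, background 6.98%) and 3 in E against F (4.92%, background 3.15%). Batches held 4 to 8 mice, and the 95% interval lay within 0.5 log2 units of 0 for 31, 23 and 32 of the 61 genes. Both batch means of the human group lay on 1 side of both macaque means for 26 genes (42.6%), against 48.8% of all genes. For squirrel monkey against macaque this held for 27 genes (44.3%, background 43.2%), and for human against squirrel monkey for 26 genes (42.6%, background 34.9%).

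**Figure D3:**
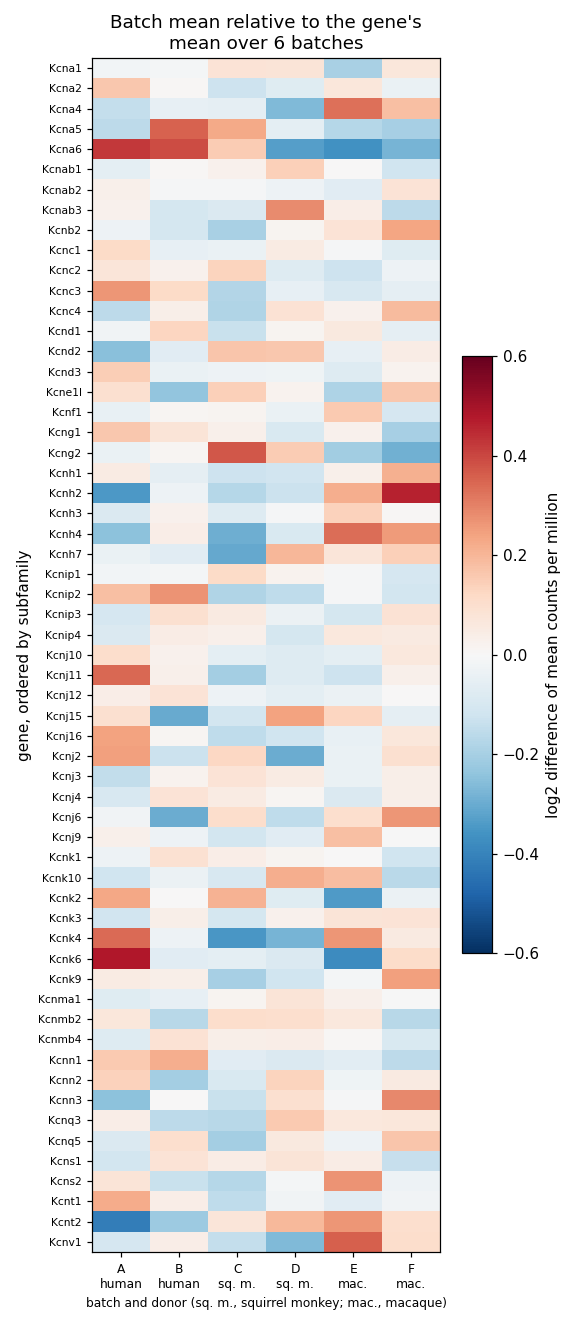
Batch mean of 59 of the 61 genes (rows, ordered by subfamily) in batches A to F (columns), as the log2 difference from the mean of the gene's 6 batch means, with red above and blue below. Kcna6 is red in A, B and C and blue in D, E and F, and Kcnt2 is blue in A and B only.

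The 32 mice differed in an oligodendrocyte marker score (mean log2 CPM of the 20 markers, each centred), which ran from -0.83 to 2.47 with human, -0.69 to 1.56 with squirrel monkey and -1.02 to 0.95 with macaque microbiota. With donor group in the model, 8 of 61 genes (13.1%) changed with the score, against 6.24% of all genes (4.24% higher and 2% lower). Of these 2 rose, Kcnj10 and Kcnab2, and 6 fell, among them Kcnh3, Kcnip4, Kcnj9, Kcnq5 and Kcnk9. Among other markers, 5 of 12 for astrocytes and 2 of 6 for oligodendrocyte precursors rose with the score, and 6 of 9 for upper cortical layers fell, and their part in the channel slopes was not tested. The slopes of Kcna6 (-0.02 ± 0.07) and Kcnt2 (-0.04 ± 0.05, SE) did not pass.

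Kcnj10, the inward rectifier of astrocytes and oligodendrocytes, had a slope of 0.19 ± 0.04 log2 units per unit of score (SE; edgeR adjusted p = 0.000279). It stood at 89.2, 84.4 and 118 CPM in the 3 human-group mice of highest score and at 79.9 and 84.6 CPM in the 2 such squirrel-monkey mice, against group medians of 72.9 and 67.8 CPM. Kcnh3, a neuronal ether-à-go-go channel of the forebrain, had a slope of -0.22 ± 0.05 (SE; adjusted p = 0.00293). In the same 5 mice it stood at 24.5, 33.6, 25.5, 27.96 and 21.3 CPM, each below its group median of 37.9 or 37.7 CPM. Exons of Kcnh3 overlap those of Mcrs1 on the other strand.

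Kcnip4 had a slope of -0.15 ± 0.04 (SE; adjusted p = 0.0137). Kcnq5, an M-current subunit, had -0.18 ± 0.05 (SE; adjusted p = 0.0359). Kcnj9, a G-protein-gated rectifier, had -0.15 ± 0.04 (SE; adjusted p = 0.0319), and Kcnk9, an acid-sensitive leak channel, -0.20 ± 0.06 (SE; adjusted p = 0.0464). Kcnab2, a beta subunit of Kcna channels, had 0.09 ± 0.03 (SE; adjusted p = 0.0461), and its exons overlap Gm16334 on the same strand. Exons of Kcnip4 overlap 5730480H06Rik and Gm20700 on the other strand, and its 3′ end has a near copy in 5730480H06Rik. Those of Kcnj9 and Kcnq5 overlap Gm36937 and Gm26580 on the other strand. Without the 5 mice of highest score, 0 of 61 genes passed (edgeR; 91 of all genes did), and the slope of Kcnj10 was 0.14 (adjusted p = 0.517) and that of Kcnh3 -0.09 (adjusted p = 0.829). In that fit Kcnip4 had a slope of -0.14 (adjusted p = 0.583), Kcnj9 -0.18 (adjusted p = 0.514), Kcnk9 -0.15 (adjusted p = 0.744), Kcnq5 -0.05 (adjusted p = 0.940) and Kcnab2 -0.014 (adjusted p = 0.977). Kcnj10, Kcnh3 and Kcnip4 passed whichever single mouse was left out. Of the 32 fits without 1 mouse, Kcnj9 passed in 29, Kcnq5 in 27, Kcnk9 in 16 and Kcnab2 in 11, and these 4 calls were each lost without any of human mice 1, 9 and 12.

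**Figure D4:**
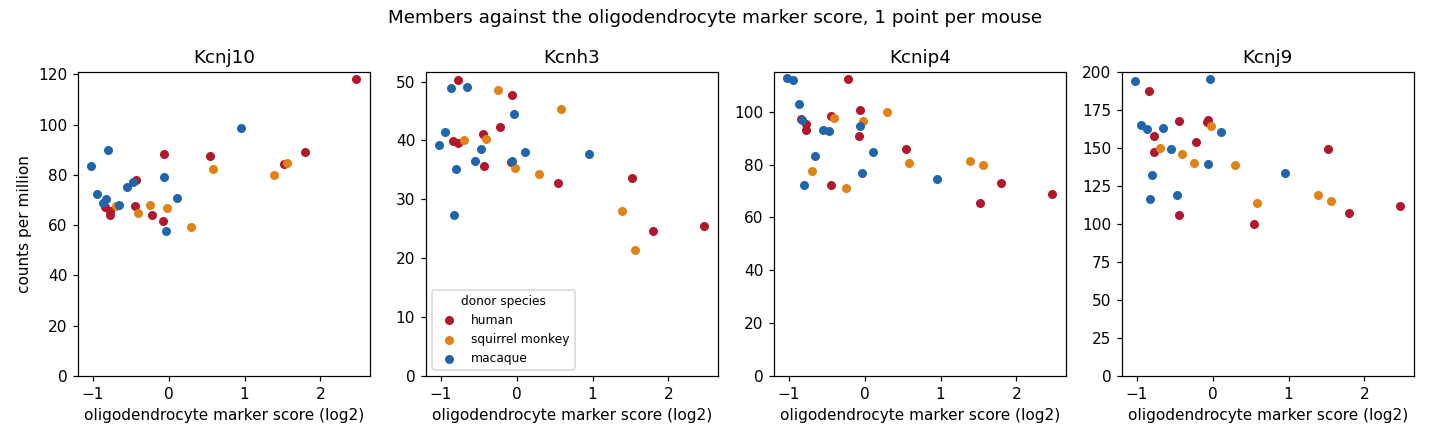
Level of Kcnj10, Kcnh3, Kcnip4 and Kcnj9 in CPM (vertical axis) against the oligodendrocyte marker score in log2 units (horizontal axis), 1 point per mouse, coloured by donor species. Kcnj10 is highest, at 118, in the mouse of highest score (2.47), and Kcnh3 lies at 21.3 to 33.6 in the 5 mice of highest score.

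**Figure D5:**
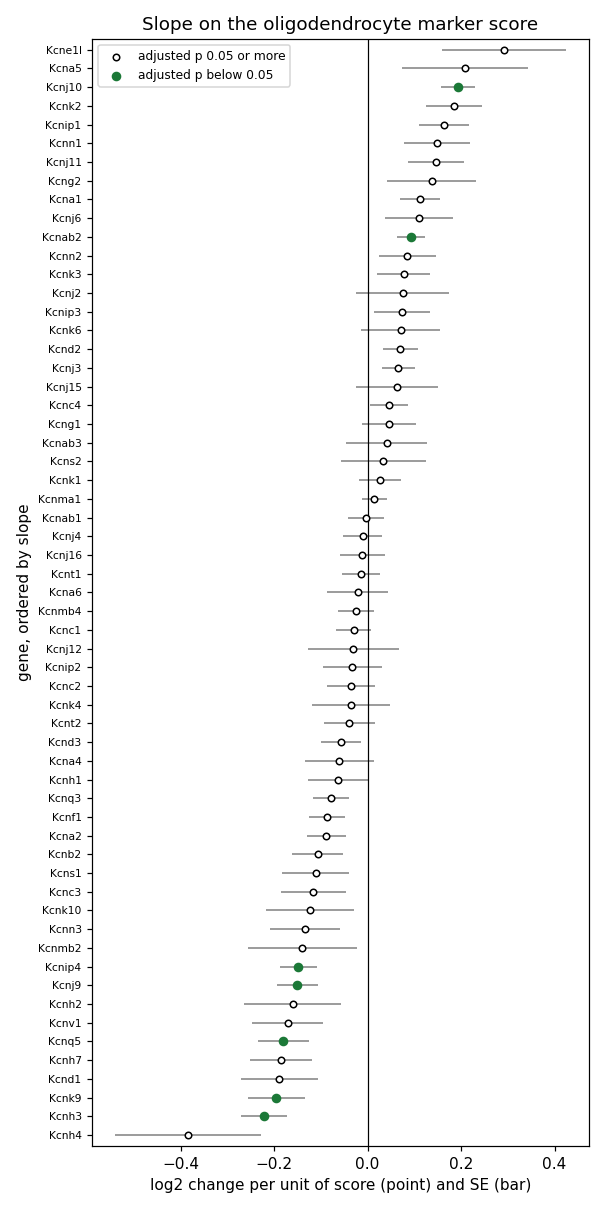
Slope on the oligodendrocyte marker score in log2 units per unit of score (points) with its SE (bars) for 59 of the 61 genes (vertical axis, ordered by slope). Filled points are 7 genes past the threshold, 2 right of 0 and 5 left of it.

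Genes whose proteins anchor, modify or gate potassium channels were listed apart (34 genes, of which 31 were tested). The list was made with earlier results of these data known, so its counts beside those of all genes cannot show an enrichment. In human against macaque 8 of 31 passed, 5 higher (Dlg4, Akap5, Lgi3, Cntn2, Lgi1) and 3 lower (Rgs4, Rgs7, Dpp10), against 8.01% of all genes. Their median log2 fold change was -0.01, with 14 higher and 17 lower. In squirrel monkey against macaque 1 of 31 passed (Rgs4; background 0.64%). In human against squirrel monkey 0 of 31 passed (edgeR; background 0.134%), and 6 did at an unadjusted p below 0.05 (background 10%). There DESeq2 called 1 of 31 and 89 of all genes, and voom called 0 of 31 and 19 of all genes. In the combined comparison 5 of 31 passed (Dlg4, Akap5 and Lgi3 higher, Rgs4 and Rgs7 lower; background 5.51%).

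Markers of other cells moved with the comparison of human and macaque donors. Oligodendrocyte markers lay higher in 20 of 20 genes, with a median log2 fold change of 1.17 and 5 passing. Striatum markers did in 7 of 7 genes, with a median of 0.41 and 1 passing. Of all genes, 8.01% passed. The oligodendrocyte markers summed to medians of 1746 CPM in human-group and 1289 CPM in macaque-group mice. The medians of the oligodendrocyte marker score were -0.15 and -0.60. Human mice 12, 1 and 4 had scores of 2.47, 1.79 and 1.52, above the macaque maximum of 0.95. Their part in the median log2 fold change of 1.17 was not tested. The striatum markers summed to 214 to 886 CPM in human-group mice (median 252) and 179 to 327 CPM in macaque-group mice (median 221), with none at 0. In squirrel-monkey mice they summed to 231 to 290 CPM (median 251). On the oligodendrocyte marker score, 5 of 31 partner genes passed (background 6.24%), among them Cntn2 (slope 0.41 ± 0.04, SE), Lgi3 (0.27 ± 0.05), Dpp10 (-0.20 ± 0.03) and Rgs4 (-0.17 ± 0.05). With the score as a covariate, 3 of 31 partner genes passed in human against macaque (Akap5, Dlg4 and Rgs7) and 740 of all genes did. The part of the striatum markers was not tested.

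Dlg4, the postsynaptic scaffold that clusters Kcna channels, was 147, 264 and 297 CPM (lowest, median, highest) in the human group, 167, 184 and 221 CPM in the squirrel monkey group and 131, 159 and 205 CPM in the macaque group. Its log2 fold change in human against macaque was 0.58 ± 0.09 (SE; edgeR adjusted p = 3.28e-05), and 11 of 12 human-group mice lay above the macaque median. Akap5, which anchors kinases at Kcnq channels, had 0.46 ± 0.11 (SE; adjusted p = 0.00470). Rgs4, a regulator of G-protein signalling, had -0.40 ± 0.11 (SE; adjusted p = 0.0148) in the human group and -0.53 ± 0.12 (SE; adjusted p = 0.0257) in the squirrel monkey group. Rgs7, a regulator that speeds the closing of G-protein-gated rectifiers, had -0.24 ± 0.06 (SE; adjusted p = 0.0169), and 0 of 12 human-group mice lay above the macaque median. The count of 8 partner genes fell to 4 with the library total as a covariate (574 of all genes instead of 1013). It fell to 2 without batch A (472 of all genes) or E (390), to 1 without batch F (337) and to 5 without human mouse 7 (770) or macaque mouse 1 (825).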

How the data were processed

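The authors deposited raw counts per Ensembl gene, made by TagSeq from frontal cortex RNA of 32 mice, per the labels' protocols. The build is GRCm39, per the submitters' processing notes; the aligner, counter, annotation release, strand use and duplicate handling were not given in the sources used here. A further 3 columns match no sample and were not used. Rows without a symbol (76) held 0.031% of counts. The protein sequences of the members were not analysed here. Some genes that the naming rule picks are not reported here.

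From the counts, 12651 genes passed filterByExpr in edgeR 4.0.16 (R 4.3.3; minimum count 10, minimum total 15) on the donor group, with TMM factors of 0.955 to 1.04. Quasi-likelihood models were fitted over all genes with the donor group, with the 6 batches, or with the donor group and the oligodendrocyte score (log2 CPM, prior count 2) as terms. Benjamini-Hochberg adjustment ran over every gene tested, and calls required an adjusted p below 0.05. The SE is the log2 fold change divided by the square root of F. CPM levels use library totals. The common biological coefficient of variation was 0.138. Alternatives used DESeq2 1.42.0 and limma 3.58.1. The code was tested on simulated data. Of the 61 members, 23 have an exon overlap on the other strand in GENCODE release M21, 2 (Kcnab2 and Kcnk4) on the same strand, and 6 a near copy of the 3′ end.

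The members and lists were chosen with earlier results of these data known. Named are members past the threshold in a donor comparison, up to 6 of smallest p past it in each batch or score test, the most abundant of each subfamily, the 2 of smallest p per donor comparison, the 2 on each side of the 5 CPM threshold, and up to 4 partner genes of smallest p past the threshold per donor comparison; other genes were named after their values were seen. Replicate numbers follow accession order and pair nothing.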

Additional observations from a re-analysis of the deposited data

Results flagged for a closer look

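Of 97 sets of mice (25 named genes in the squirrel monkey group, and the tested genes within each batch), 5 held a mouse far from the rest by Dixon's test at the 95% level, where chance gives about 1 set in 20. Kcnv1 stood at 16.7 CPM in squirrel monkey mouse 8, against 32.0 to 43.1 CPM in the other mice of the donor group and 36.2 to 39.4 CPM in those of batch D. The same mouse had the highest Kcnj10 in batch D, 84.6 CPM against 64.9 to 67.9 CPM. Human mouse 12 had the highest Kcnj10 in batch B, 118 CPM against 63.9 to 87.5 CPM, and the highest Kcnab2, 305 CPM against 203 to 250 CPM. Both mice are among the 5 of highest oligodendrocyte marker score, at 1.56 and 2.47. Kcnj10 and Kcnab2 entered the sets within batches because they passed the slope test on that score. Their distant mice are therefore no separate result, and the part of the score in these values was not tested.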

How the results depend on the processing

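Kcna6 and Kcnt2 kept their direction and call in human against macaque in all 17 other settings (log2 fold changes of 0.51 to 0.74 and -0.62 to -0.40, adjusted p up to 0.0177 and 0.0479) and in all 32 fits without 1 mouse. The count of 2 members (1013 of all genes) became 4 with the library total as a covariate (574 of all genes), with Kcnh2 and Kcnn1 added. It was 2 to 4 without 1 mouse (4 without human mouse 12, with Kcnc4 and Kcnj6 added and 1069 of all genes called). In human against squirrel monkey, 0 (17 of all genes) became 1 with DESeq2 or without batch B (Kcnd2) and without batch C (Kcna6). These settings called 89, 58 and 63 of all genes. The combined count of 1 (697 of all genes) became 2 with voom (659) or with batch as fixed levels (772) and 3 with the library total (645). It became 5 without batch B (1024) and 0 without batch C (206), E (172) or F (73). Without 1 mouse it ranged from 1 to 4 (4 without macaque mouse 7, with 634 of all genes). The 8 slopes (790 of all genes) became 4 with no filter on low counts (774) and 0 without the 5 mice of highest score (91), where Kcnab2 turned to -0.014. Without 1 mouse they ranged from 3 to 10. They were 3 without human mouse 1 (566) or 9 (654), 4 without human mouse 12 (471) and 5 without squirrel monkey mouse 1 (708) or 5 (695). For the partner genes, the 8 of human against macaque became 4 with the library total (574 of all genes) and 5 with counts summed per batch (539). They became 3 with the score as a covariate (740) or without the 5 mice (782). Without batch A (472) or E (390) they became 2, without batch F (337) 1, and without 1 mouse 5 to 9. The 1 of squirrel monkey against macaque (81 of all genes) became 0 with the score (25), without batch C (2), E (10) or F (0), or without the 5 mice (22). It was 0 to 1 without 1 mouse (0 without squirrel monkey mouse 1, 2 or 7 or macaque mouse 8, with 32, 28, 55 and 56 of all genes). Human against squirrel monkey went from 0 to 1 with DESeq2 (89 of all genes) or without the 5 mice (39), and 0 to 1 without 1 mouse. The combined 5 became 3 with the score (308 of all genes), without batch A (445) or D (531) or without the 5 mice (376). They became 2 without batch C (206) or E (172) and 0 without batch F (73), and 4 to 7 without 1 mouse. The causes of these changes were not tested, and fits that leave mice out also hold fewer mice. Thresholds of 1 and 10 CPM would give 75 and 55 members. No paired analysis was possible because the replicate numbers follow accession order and pair no mice. Counts near 5 CPM limit the precision of the least abundant genes.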
